A study of Mus musculus with 4 samples.

Results

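Chromatin at 10 genes that define myeloid blood cells was examined in a mouse leukemia of the B-cell lineage. The genes were chosen by their function: the transcription factors Spi1, Cebpa and Cebpe, the receptors Csf1r, Csf3r, Itgam and Cd14, and the granule enzymes Mpo, Elane and Lyz2. The choice was made with earlier results of these data known. All 10 could be located in the peak lists, among 17195 protein-coding genes located in all. The series comprised 4 chromatin immunoprecipitation sequencing (ChIP-seq) libraries of C57BL/6J pre-B leukemia cells that overexpressed the BCR-ABL1 fusion kinase and were p19 null. They were a ChIP of PHF6, a ChIP of H3K27ac, a ChIP of H3K27me3 and an input DNA library, which was not analysed here. All libraries share this genotype and the labels name no treatment, so the comparisons are between genes and between antibodies, not between conditions. Each antibody had 1 library, so no value has a replicate error and no test was made. The labels do not say how many separate cultures or clones the cells came from, nor what promoter drives BCR-ABL1.

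Blood cells of the myeloid branch arise when PU.1, the product of Spi1, and the C/EBP family factors switch on receptors for myeloid growth factors and, later, the enzymes stored in granules. PU.1 also acts in B-cell progenitors, whereas the C/EBP factors and the granule enzymes are typical of monocytes and granulocytes. H3K27ac is a histone acetylation found at active promoters and enhancers, H3K27me3 is the mark that Polycomb repressive complexes place on silent genes, and PHF6 is a zinc-finger protein of the nucleus that binds chromatin. The deposited lists give, for each called peak, its mm9 position, the peak caller's score and the pileup height of its summit, all of them the authors' own values. Read totals are not in these lists, so depth is unknown and heights were compared within 1 list only.

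The RefSeq promoter table holds 6 of the 10 genes, each with the 250 bases before and 50 after the start on build GRCm38.p6. The 4 promoters printed here span the states found at the starts, as described below: Cebpa had PHF6 and H3K27ac, Elane had PHF6 and H3K27me3, Lyz2 had H3K27me3 nearby, and Itgam had no peak. Capitals mark matches, on either strand, to 3 short motifs that do not overlap each other in these sequences: GAGGAA, the core bound by PU.1 and other ETS factors, TTNNGCAA, a C/EBP-like motif, and TATAAA, the TATA box.
Cebpa promoter, chr7:35119043-35119342, + strand: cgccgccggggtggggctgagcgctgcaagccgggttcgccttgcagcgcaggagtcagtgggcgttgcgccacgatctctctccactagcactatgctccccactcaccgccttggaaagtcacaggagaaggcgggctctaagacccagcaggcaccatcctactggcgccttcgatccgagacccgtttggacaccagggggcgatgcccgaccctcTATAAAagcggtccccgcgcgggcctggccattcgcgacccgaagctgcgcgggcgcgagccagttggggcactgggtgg
Elane promoter, chr10:79886062-79886361, + strand: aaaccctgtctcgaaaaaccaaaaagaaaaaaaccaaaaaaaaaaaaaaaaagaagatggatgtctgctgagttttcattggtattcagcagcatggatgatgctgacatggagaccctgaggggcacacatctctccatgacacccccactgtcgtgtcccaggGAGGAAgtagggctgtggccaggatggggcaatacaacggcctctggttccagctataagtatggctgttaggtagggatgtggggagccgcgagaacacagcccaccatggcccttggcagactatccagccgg
Itgam promoter, chr7:128062390-128062689, + strand: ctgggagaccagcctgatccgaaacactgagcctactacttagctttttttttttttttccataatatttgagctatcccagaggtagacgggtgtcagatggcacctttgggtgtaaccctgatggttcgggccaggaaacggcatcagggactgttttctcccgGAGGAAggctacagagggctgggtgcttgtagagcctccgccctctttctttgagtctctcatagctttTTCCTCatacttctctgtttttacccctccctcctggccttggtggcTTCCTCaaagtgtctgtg
Lyz2 promoter, chr10:117282223-117282522, - strand: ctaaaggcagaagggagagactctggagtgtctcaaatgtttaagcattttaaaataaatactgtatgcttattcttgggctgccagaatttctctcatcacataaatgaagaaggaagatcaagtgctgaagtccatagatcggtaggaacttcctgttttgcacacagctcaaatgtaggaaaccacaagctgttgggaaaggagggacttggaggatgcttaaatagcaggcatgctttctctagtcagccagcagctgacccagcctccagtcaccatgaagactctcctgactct

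Of all 32851 promoters in the table, 28.3% held GAGGAA, 10.8% held TTNNGCAA and 13.6% held TATAAA. Among the 6 members, GAGGAA was present in 4 promoters: Itgam had 3 matches, Mpo had 2, and Csf3r and Elane had 1 each. TTNNGCAA was found in 0 of the 6, and TATAAA in Cebpa. The members differed widely in CG dinucleotides, the substrate of DNA methylation and a hallmark of promoters that Polycomb complexes bind. Cebpa held 29 CG dinucleotides, more than 87.1% of promoters, while Csf3r held 9, Elane and Itgam 6 each, Mpo 2 and Lyz2 1. The median promoter held 7. These matches describe the letters of the windows and say nothing of binding.

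The gene table belongs to GRCm38 and the lists to mm9, so each gene was moved by the local shift at which H3K27ac summits of height 200 or more best met annotated starts within 1 Mb. For the members, between 6 and 38 starts met a summit at the chosen shift, and it varied by at most 288 bp when the settings were changed. Support was weakest for Csf1r, with 6 matches against 5 at the next best shift, and for Cd14, with 9 against 7. Distances from a start or end are mostly given below to 0.1 kb, which is finer than the largest variation of the shift, 288 bp. A gene was said to carry a mark at its start when a peak lay within 1 kb of it. The height at a start is the summit height of the tallest such peak, and that summit can lie beyond 1 kb. Spi1, Cebpe, Csf1r and Cd14 have no start in the promoter table, and for these a peak within 1 kb of either annotated end was counted. At the located starts of all genes 73.7% carried PHF6, against 27.3% at points 20 kb away. The shift itself was found with tall H3K27ac summits, and 71.7% of all H3K27ac peaks overlapped PHF6. The PHF6 shares are therefore no independent check of the positions. How far the choice of shift raises the shares of starts with H3K27ac or PHF6 was not tested.

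PHF6 was present at most of the myeloid genes, acetylation at fewer, and trimethylation at 3. PHF6 was at the start of 8 of 10 members, beside 73.7% of all located genes, so this share was near the background. H3K27ac was at the start of 4 of 10 members, beside 66.7% of all genes. An H3K27ac peak with a summit height of 200 or more was at the start of 1 member, Spi1, beside 40.7% of all genes. H3K27me3 was at the start of 3 of 10 members, beside 5.18% of all genes. Counting either end gives a gene more room to meet a peak, so the 2 kinds of gene were also counted apart. Of the 6 members with a tabled start, 1 had H3K27ac (66.9% of such genes), 4 had PHF6 (72.8%) and 2 had H3K27me3 (3.82%). Of the 4 members counted at either end, 3 had H3K27ac (66.0%), 4 had PHF6 (77.4%) and 1 had H3K27me3 (10.9%).

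Combined by gene, the starts fell into 6 states. PHF6 alone was at Csf1r, Csf3r and Mpo (11.9% of all genes were in this state). PHF6 with H3K27ac was at Spi1, Cebpa and Cebpe, the 3 transcription factors (57.1%). All 3 marks were at Cd14 (4.26%), PHF6 with H3K27me3 was at Elane (0.471%), H3K27me3 alone was at Lyz2 (0.291%), and no list had a peak at Itgam (20.7%). The state of Mpo rested on the edge of a PHF6 peak 0.8 kb from the start, and that of Lyz2 on the edge of an H3K27me3 peak 0.97 kb from it. Neither was counted when the distance was cut to 500 bp.

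**Figure D1:**
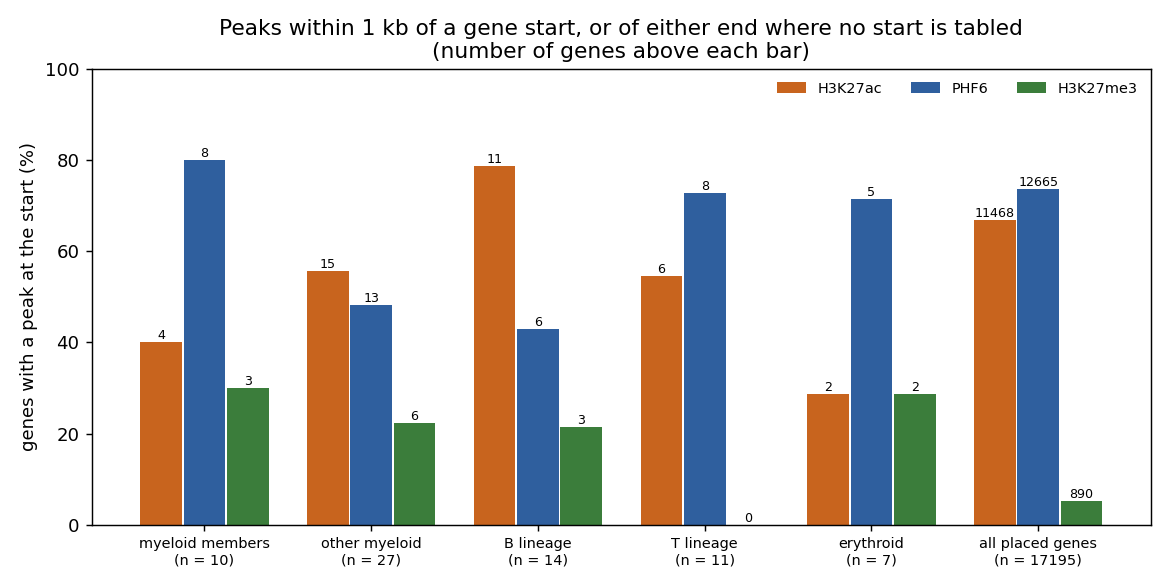
Share of genes (vertical axis, %) with a peak of each list within 1 kb of the start, or of either end where no start is tabled, for the 10 myeloid genes, the 4 comparison lists and all 17195 located genes. Numbers above the bars are genes. The myeloid members show H3K27ac at 4 and PHF6 at 8 of 10 starts.

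In the wider window of the gene body plus 20 kb on each side, all 10 members held at least 1 H3K27ac peak and at least 1 PHF6 peak, beside 82.1% and 91.3% of all genes. H3K27me3 was in 3 windows, beside 28.0%. The 10 windows held 32 H3K27ac, 77 PHF6 and 6 H3K27me3 peaks. Spi1 and Elane supplied 17 of the 32 H3K27ac peaks, 7 and 10 respectively, and the other 8 windows held 15. A member's window held a median of 2 H3K27ac peaks and 7 PHF6 peaks, and the medians of all genes were 2 and 4. Of the 32 H3K27ac summits, 12 were nearer to the member's own start or end than to that of any other located gene, and these lay at 6 of the 10 members. Of all located genes 69.3% had such a summit, so the members' share was near the background. Summits of height 200 or more occurred in 4 windows, beside 57.2% of all genes. There were 7 of them, and 5 lay nearest Slc39a13, Mrps15, Tmco6, Ndufa2 or Med16. The other 2 were in Spi1. Outside Spi1, the 7 H3K27ac summits nearest a member's own start or end had heights of 20 to 35, at or below the list's median of 35.

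**Figure D2:**
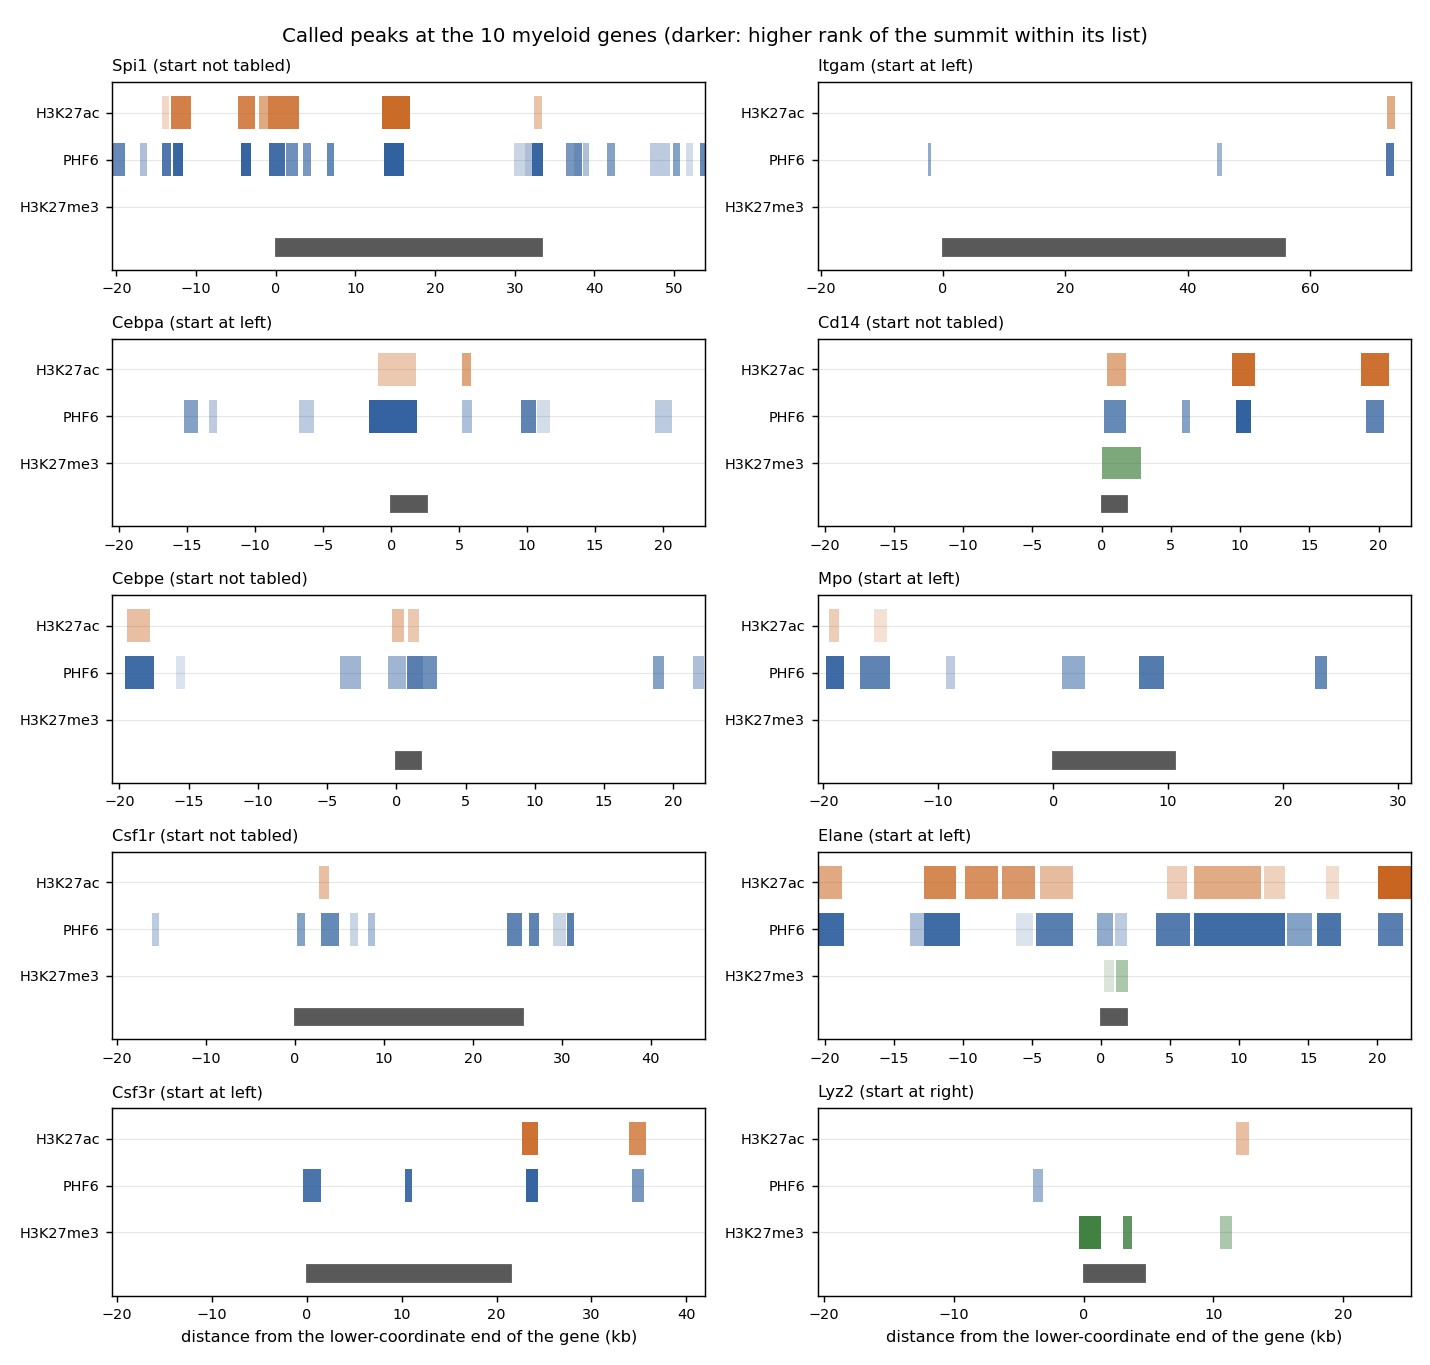
Called peaks of the 3 lists around each gene, by distance in kb from the gene's lower-coordinate end, with the gene as a grey bar and the flanks of 20 kb. Darker peaks have summits that rank higher within their list. Spi1 carries tall acetylation over and beside the gene, the Elane gene sits in a gap between acetylated peaks, and Lyz2 carries H3K27me3.

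Spi1 encodes PU.1, the ETS factor required for both myeloid and lymphoid development. Its window on chromosome 2 held 7 H3K27ac peaks with summit heights of 17, 218, 196, 32, 241, 336 and 21 in order along the chromosome. The tallest, at 90936042 to 90939486 (mm9), lay inside the gene 14.4 kb from the lower end, ranked above 94.7% of the H3K27ac list and had a score of 3100. The next tallest, at 90921703 to 90925648, covered the lower end itself with height 241 and a width of 3946 bp, and the summits of these 2 peaks were 14.0 kb apart. Spi1 is known to be driven by its promoter together with a distal upstream regulatory element. The table used here gives neither, so the peaks were not assigned to them. Another peak, of height 196, lay 3.6 kb outside the lower end. The peak of height 218 lay at the start of the neighbour Slc39a13, a zinc transporter gene.

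The tallest PHF6 peaks of Spi1 lay on acetylated sites. The window held 22 PHF6 peaks, the most of any member, with heights from 16 to 48. The tallest of these, 48, ranked above 98.4% of the PHF6 list and lay 212 bp from the summit of the tallest acetylated peak. At the acetylated peak covering the lower end the PHF6 height was 33, with its summit 166 bp from that of H3K27ac. At the H3K27ac peak of height 196, 3.6 kb outside the lower end, it was 42, with the summits 10 bp apart. At the H3K27ac peak of height 218 at Slc39a13 it was 39, with the summits 144 bp apart. At the upper end a PHF6 peak of height 39 coincided with a low H3K27ac peak of height 21. Another 9 PHF6 peaks, with heights of 16 to 25, lay beyond the upper end, nearest Mybpc3, a gene of heart muscle, with no acetylation. No H3K27me3 peak lay in the Spi1 window.

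Cebpa encodes C/EBPα, which commits progenitors to the granulocyte and monocyte branch. Its start on chromosome 7 lay under a PHF6 peak at 35902524 to 35906044 that was 3521 bp wide, wider than 97.7% of the list, with height 43 and score 1248. The H3K27ac peak there, at 35903165 to 35905953, was 2789 bp wide and low, with height 20 at the 23.6 percentile of its list and its summit 1.3 kb past the start. PHF6 thus ranked high and acetylation low over the same stretch, each within its own list. A narrower H3K27ac peak of height 35 had its summit 5.6 kb past the start, with a PHF6 summit of height 19 within 6 bp of it. The other 6 PHF6 peaks of the window had heights of 16 to 26 and no acetylation. No H3K27me3 peak lay within 20 kb of Cebpa, whose promoter held the most CG dinucleotides of the 6 tabled.

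Cebpe encodes C/EBPε, which acts late in granulocyte development. On chromosome 14 it had H3K27ac peaks of heights 22 and 20 over its body of 1.8 kb, at 55329003 to 55329869 and 55330206 to 55330950. PHF6 peaks of heights 20 and 27 had summits 55 and 8 bp from them. Another PHF6 peak of height 24 lay 0.7 kb beyond the upper end without acetylation. The tallest PHF6 summit of the window, 34, lay 1.4 kb from Gm29776, on an H3K27ac peak of height 22. All H3K27ac peaks of the Cebpe window were below the median height of their list, and no H3K27me3 peak was called there.

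Among the receptors, Csf1r, the receptor for macrophage colony-stimulating factor, had 1 H3K27ac peak in a window of 65.6 kb. It lay inside the gene 3.2 kb from the lower end, at 61267793 to 61268918 on chromosome 18, with height 22. A PHF6 peak of height 25 had its summit 15 bp away. Csf1r is known for an enhancer in an early intron, and the table does not give its introns, so the peak was not assigned to it. A further 8 PHF6 peaks had heights of 17 to 27 and no acetylation, among them 1 near the lower end of the gene with height 22 and 2 near the upper end with height 26 each.

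Csf3r, the receptor for granulocyte colony-stimulating factor, showed PHF6 and no acetylation within the gene. A PHF6 peak of height 30 on chromosome 4 at 125700465 to 125702294 covered the start, with its summit 1.1 kb before it, and another of height 32 lay 9.5 kb into the gene. Both ranked above 84.4% of the PHF6 list or more. The 2 acetylated peaks of the window lay nearest other genes. One of height 308 lay at the start of Mrps15, a mitochondrial ribosomal protein gene, with PHF6 of height 41, and one of height 104 lay 0.3 kb from the start of Oscp1.

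Itgam, the CD11b chain of an adhesion receptor on monocytes and granulocytes, had the fewest peaks of the members, 4 in a window of 95.9 kb. There was 1 H3K27ac peak of height 31, which lay 73.0 kb past the start and nearest Itgax, and there were 3 PHF6 peaks. A PHF6 peak of height 21 lay 2.3 kb before the start with a score of 60.42, close to the smallest score of 60. Another of height 20 lay 45.0 kb into the gene, and the tallest, 29, coincided with the distant acetylated peak. No H3K27me3 peak was found, so its start carried none of the 3 marks. Its promoter, printed above, holds 3 GAGGAA matches.

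Cd14, the co-receptor for bacterial lipopolysaccharide, was the member with all 3 marks. On chromosome 18 an H3K27me3 peak at 36884654 to 36887418 covered the gene of 1.8 kb. It was 2765 bp wide, wider than 97.6% of that list, with a height of 18 and a score of 388. An H3K27ac peak of height 32 and a PHF6 peak of height 25 overlapped it, with the PHF6 summit 176 bp from that of H3K27me3. Overlap in peak lists does not show whether the marks sit on the same chromosome copy or in the same cell. H3K27ac of heights 327 and 311 lay 8.5 and 17.7 kb beyond the upper end of Cd14, at the starts of Tmco6 and Ndufa2.

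The granule enzymes were without acetylation at their starts. Mpo, myeloperoxidase, had PHF6 peaks of heights 21 and 28 inside the gene, 2.0 and 7.9 kb past the start, and neither overlapped H3K27ac. Its 2 acetylated peaks, with heights 19 and 15, lay at -19.0 and -14.9 kb from the start, nearest Tspoap1, on PHF6 peaks of heights 35 and 26. No H3K27me3 peak was present in the Mpo window.

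Elane, neutrophil elastase, lay in an acetylated stretch of chromosome 10 with no H3K27ac peak on the gene itself. The window held 10 H3K27ac peaks, of which the tallest, 360, was nearest Med16, one of height 146 was nearest Plppr3, and those of heights 87 and 58 were nearest Prtn3, which encodes another neutrophil protease. The nearest acetylated summit before Elane, of height 23, lay 2.9 kb upstream of its start. The nearest after the gene, of height 19, lay 5.1 kb past that start. Over the gene of 1.9 kb were 2 H3K27me3 peaks of heights 11 and 14, at 79349335 to 79350031 and 79350184 to 79351101, and 2 PHF6 peaks of heights 21 and 18. The PHF6 summit of height 18 lay 2 bp from the H3K27me3 summit of height 14. The H3K27me3 peak nearest the start was weak, with a score of 69, and was lost at a score of at least 100.

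Lyz2, lysozyme of macrophages and neutrophils, carried the tallest H3K27me3 of the members. The peak on chromosome 10 at 116714069 to 116715741 had a height of 59, above 96.8% of the list, and a score of 1202, and lay 4.1 kb past the start at the far end of the gene. A second of height 24 lay 1.4 kb past the start, and another of height 14 lay 4.4 kb from the start of the adjacent gene Lyz1. None of the 3 overlapped PHF6 or H3K27ac. The single PHF6 peak of the window, height 20, lay 8.4 kb past the start, and the single H3K27ac peak, height 22, lay 3.0 kb from the start of Lyz1. Lyz1 and Lyz2 are close copies of each other, and the sources used here do not say how reads that fit both were counted, so the peaks at this pair are uncertain.

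Across the windows, acetylated sites nearly always held PHF6. Of 32 H3K27ac peaks, 29 (90.6%, 95% exact binomial interval 75.0 to 98.0) overlapped a PHF6 peak, beside 71.7% of the whole H3K27ac list. The exceptions lay near Prtn3, beside the lower end of Spi1 and near Lyz1. Seen from PHF6, 30 of 77 peaks (39.0%, 28.0 to 50.8) overlapped H3K27ac, beside 30.3% of the whole list. These intervals cover counting error only, and peaks of 1 window are not independent. PHF6 peaks on acetylation had a median height of 29 (range 15 to 48) and the 47 others a median of 21 (range 15 to 32), so the ranges overlapped. Of the H3K27me3 peaks, 3 of 6 (50.0%, 11.8 to 88.2) overlapped PHF6, 2 at Elane and 1 at Cd14, and the share of the whole list, 26.0%, lay within that interval.

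**Figure D3:**
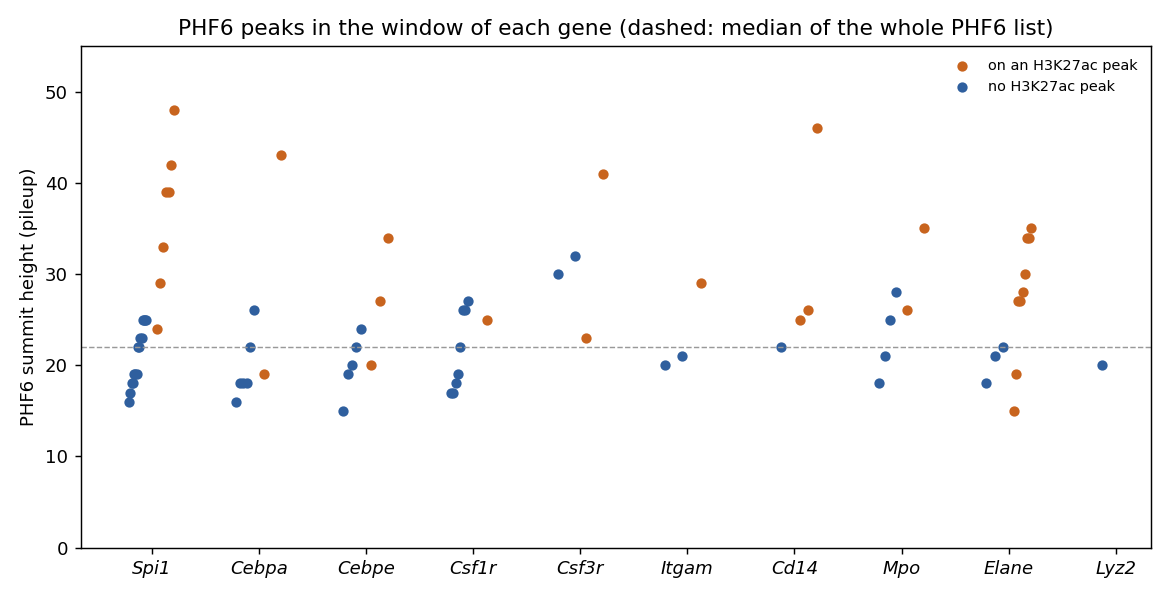
Summit heights (vertical axis, pileup) of all 77 PHF6 peaks in the 10 windows, by gene, split by overlap with an H3K27ac peak. The dashed line is the median of the whole PHF6 list, 22. The tallest, of height 48, is an acetylated site in Spi1, and at Csf3r the 2 unacetylated peaks of heights 30 and 32 lie between acetylated ones of 23 and 41.

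Lineage genes were set beside the labelled cell type. Their lists were chosen with earlier results of these data known, so this is no independent check of the label. Of 14 B-lineage genes located, 11 (78.6%) had H3K27ac at the start, beside 66.7% of all genes. Of the 14, 8 (57.1%) had a peak of height 200 or more there, beside 40.7%. The median tallest height was 272.5 over the list and 80 over all genes. Cd24a (351), Igll1 (329) and Vpreb1 (329) were the tallest, the last 2 encoding the surrogate light chain of pre-B cells. Rag1 and Rag2, the recombinase of antigen receptor genes, and Dntt had no peak at the start, the first 2 of them located from the shifts of their neighbours. H3K27me3 was at 3 of the 14 B-lineage starts (21.4%, beside 5.18% of all genes), among them Cd24a and Cd79b with heights of 20 and 42. Cd24a and Cd79b were counted at either annotated end. The myeloid members had a median tallest height of 0, since 6 of 10 had no H3K27ac peak at the start. T-lineage genes had H3K27ac at 6 of 11 starts (54.5%, beside 66.7% of all genes), none reaching height 200. Tcf7 (128), Lck (109) and Cd4 (105) were tallest. Erythroid genes had H3K27ac at 2 of 7 (28.6%), Klf1 (283) and Tal1 (67). They had H3K27me3 at 2 of 7 starts (28.6%, beside 5.18% of all genes), Tal1 and Hba-a1, with heights of 13 and 77. T-lineage genes had H3K27me3 at 0 of 11 starts. No difference between these lists was tested.

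**Figure D4:**
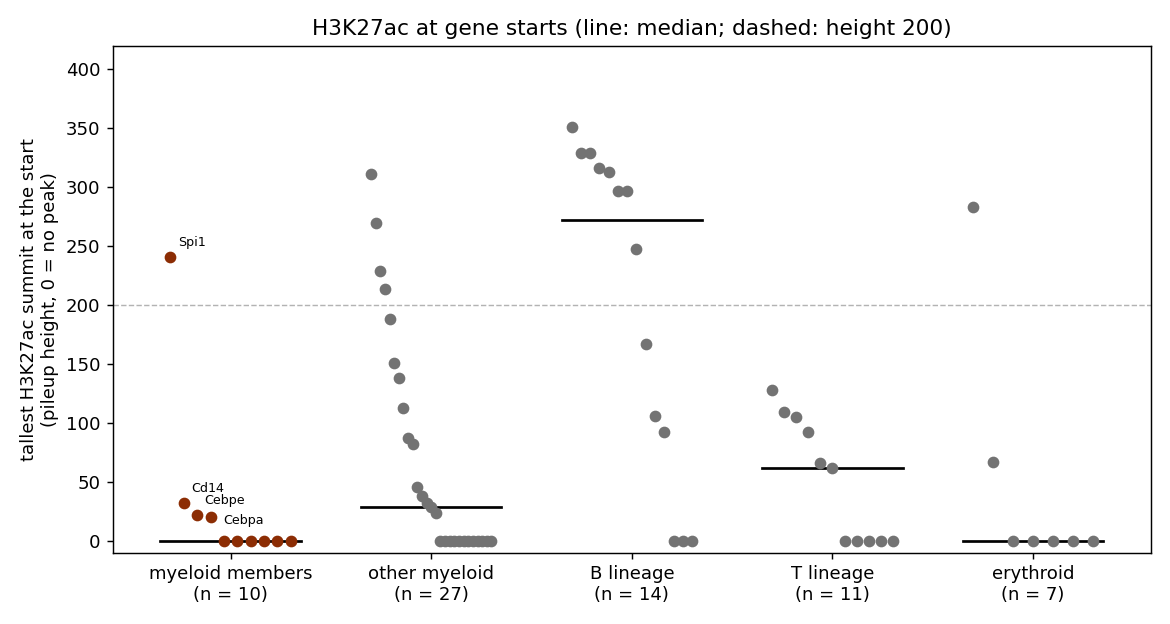
Summit height (vertical axis, pileup) of the tallest H3K27ac peak within 1 kb of each gene's start. Where no start is tabled, either end was used, and 0 means no peak. The 10 myeloid members and 4 comparison lists are shown. Bars are medians and the dashed line marks height 200. Spi1 (241) stands alone among the members, and the B-lineage genes have a median of 272.5.

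Other myeloid genes were likewise mixed in state. Of 27 located, 15 (55.6%) had H3K27ac at the start, beside 66.7% of all genes. PHF6 was at 13 (48.1%, beside 73.7%) and H3K27me3 at 6 (22.2%, beside 5.18%). The tallest acetylation was at Csf2ra (311), a subunit of the receptor for granulocyte-macrophage colony-stimulating factor, Tyrobp (270), a signalling adaptor, and Klf4 (229), a transcription factor. Klf4 was located from the shifts of its neighbours, not by its own. H3K27me3 was at Cebpb, Cebpd, Csf2rb, Cd68, S100a8 and S100a9, with heights of 38, 25, 49, 28, 22 and 27. By the lists present at the start and the nearest H3K27ac height, the 2 closest genes of this list were taken for each member with a peak at the start. Klf4 (229) and Irf8 (214), a factor shared by monocytes and B cells, were nearest Spi1 (241), each with PHF6 as well. Mmp9 (32) and Fcer1g (38) were nearest Cebpa (20) and Cebpe (22). S100a8 and S100a9, which encode the calprotectin of neutrophils, shared H3K27me3 alone with Lyz2. Cebpd and Cebpb shared all 3 marks with Cd14, with taller acetylation (113 and 188 against 32). Camp and Lcn2, both granule proteins, shared PHF6 without acetylation with Csf1r, Csf3r and Mpo. No gene of the list shared the state of Elane. Like Itgam, 8 of the 27 had no peak at the start, beside 20.7% of all genes. Likeness rests on 3 lists from 3 libraries and says nothing of shared control.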

How the data were processed

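The deposited files hold, for PHF6, H3K27ac and H3K27me3 in 1 library each, a score per peak and a whole-number signal (pileup height) per summit, as the authors made them. The submitters' processing notes list mm9 as the build and, as tools, MACS 1.4.0, Bowtie2 and SAMtools, without order or options. Per the deposited files' names, the threshold was 1e-6 for each list, and local background was turned off for PHF6 and H3K27ac but not for H3K27me3. The smallest score, 60, is 10 times the negative log10 of that threshold.

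Genes came from RefSeq (GRCm38.p6). Of 21883 protein-coding genes, 14327 were located by their own shift (searched over 8 Mb, at least 5 matches, agreement within 500 bp between 3 settings), 2868 by equal shifts of located genes on both sides, and 4688 were left out. On simulated lists with known shifts, the locating step placed 86.3% of genes, 99.4% of them within 500 bp of the known shift. Many simulated summits were drawn around starts, so the method's own assumption was built into this check. Peaks overlapped when they shared at least 1 bp. All 10 members were named. Other genes were named by rule as neighbours of tall H3K27ac summits, for the 3 tallest acetylated starts of a list, for H3K27me3 at the start, or for likeness; 1 result that this rule would name is not reported here. The neighbours of lower peaks, and Rag1, Rag2 and Dntt, were named after their values were seen. The members and lists were chosen with earlier results of these data known. Scripts ran in Python 3.11.15, with matplotlib 3.10.9 for figures, scipy 1.17.1 for intervals, and pandas 2.3.3 and numpy 2.4.6 for tables. Alternatives changed the window, overlap rule, score and shift.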

Additional observations from a re-analysis of the deposited data

How the results depend on the processing

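The counts of members with each mark at the start, 4 for H3K27ac, 8 for PHF6 and 3 for H3K27me3, stayed within 1.5 times in every setting run, at 3 to 5, 6 to 9 and 2 to 3. Counting either annotated end for all genes, chosen after seeing the data, gave 4, 8 and 3, and the share of all genes with H3K27me3 was then 10.2%. Counts in the wider windows moved with the window. With a flank of 5 kb there were 16 H3K27ac and 41 PHF6 peaks, and 7 members held H3K27ac, beside 76.0% of all located genes. With 50 kb there were 63 and 136 peaks. H3K27me3 was then in the windows of 6 members, beside 40.9% of all located genes (28.0% with 20 kb). With peaks nearest the member alone there were 12 H3K27ac and 38 PHF6 peaks, and 6 members had H3K27ac, beside 69.3% of all located genes. A score of at least 100 left 51 PHF6 peaks. The share of H3K27ac peaks that held PHF6 was 84.0% to 93.8%, within its counting interval. All 10 positions held under both other shifts. The members were located by their own shift, which required the 3 shifts to agree within 500 bp. This result was therefore fixed in advance and is no check of the positions. No paired analysis was possible because the 3 lists came from 1 library each. Read depth is unknown, so a missing peak does not show that a mark is absent.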
